A study of Mus musculus with 6 samples.

Results

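The transcription factors that set up the hormone-producing cells of the gut were measured in mouse small-intestinal organoids given arachidonic acid. The set holds 9 genes chosen by name, Neurog3, Neurod1, Insm1, Pax4, Pax6, Isl1, Nkx2-2, Rfx6 and Fev, and all 9 were found among the 53953 rows of each library. Organoids, which are epithelial cultures grown from crypts, were derived from wild-type C57BL/6 mice, from the proximal part of the small intestine, and were kept in Matrigel at passage 3 to 5. The treated group received arachidonic acid, an omega-6 fatty acid, dissolved in ethanol, for 3 days before passaging, and the vehicle group received 0.1% ethanol. RNA was taken on day 3 after passaging from 3 libraries per group. No source used here states the dose, or whether replicate libraries stand for separate cultures or mice. The p-values then reflect only how much these libraries vary, and that variation may be technical.

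Enteroendocrine cells are scattered secretory cells of the gut lining that release hormones such as cholecystokinin, GIP and GLP-1 in response to food. A crypt progenitor that escapes Notch signalling and expresses Atoh1 can switch on Neurog3, a basic helix-loop-helix factor that acts for a short time and commits the cell to the endocrine path. Neurog3 is followed by Neurod1, Insm1, Pax4 and Nkx2-2, and then by factors such as Rfx6, Pax6, Isl1 and Fev that act in maturing cells and in the choice of hormone. Many of the same factors build the endocrine islets of the pancreas.

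The libraries held 35.6 to 50.8 M assigned fragments (M, mega), as implied by the deposited values. Values are FPKM, fragments per kilobase of gene length scaled to each library's total, so levels of different genes can be set side by side. Vil1, an epithelial structural gene, was at 377 to 480 FPKM and the stem cell marker Lgr5 at 67.1 to 90.1 FPKM over the 6 libraries. Most of the listed stem cell markers, unlike Lgr5, were called higher or lower with arachidonic acid, as given below. The glial marker Sox10 and the vessel markers Cdh5 and Emcn were listed at 0 in every library. Arachidonic acid replicate 1 stood apart from the other treated libraries. On the first principal component of 12913 genes, which held 85.2% of the variance, the vehicle libraries lay at -41.6 to -40.4, arachidonic acid replicate 1 at 10.2 and replicates 2 and 3 at 58.1 and 54.6. The results on the 9 factors are therefore given with and without that library, and for other genes named here the fit without it is given where it changes a call.

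All 9 factors were lower with arachidonic acid, and for each of them the highest treated library lay below the lowest vehicle library. Among 18510 genes averaging 0.1 FPKM or more, 23.3% were lower without overlap in this way and 24.4% were higher, and among those averaging 1 FPKM or more 27.5% were lower. The group means with arachidonic acid were 3.39% (Pax4) to 27.8% (Pax6) of the vehicle means. Of the 9, the 6 averaging 1 FPKM or more were tested in the main fit, limma on log2(FPKM + 1), and all 6 fell at an adjusted p under 0.05, where 19.4% of the 12913 genes tested were called lower. Neurod1, Rfx6 and Fev averaged 0.352, 0.570 and 0.842 FPKM with arachidonic acid and passed the filter only through their vehicle level, so the count is not independent of it. Pax4, Pax6 and Isl1 had means of 0.840, 0.754 and 0.857 FPKM and were left out by that filter. With a minimum mean of 0.1 FPKM all 9 were called lower, against 14.3% of 18510 genes, and none was called higher, against 16.0%. Pax4, at a treated mean of 0.0551 FPKM, passed this lower filter only through its vehicle level. With no filter on the mean all 9 were called lower, as were 2089 of 28021 genes. In bulk RNA, fewer enteroendocrine cells and less RNA per cell cannot be told apart.

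**Figure D1:**
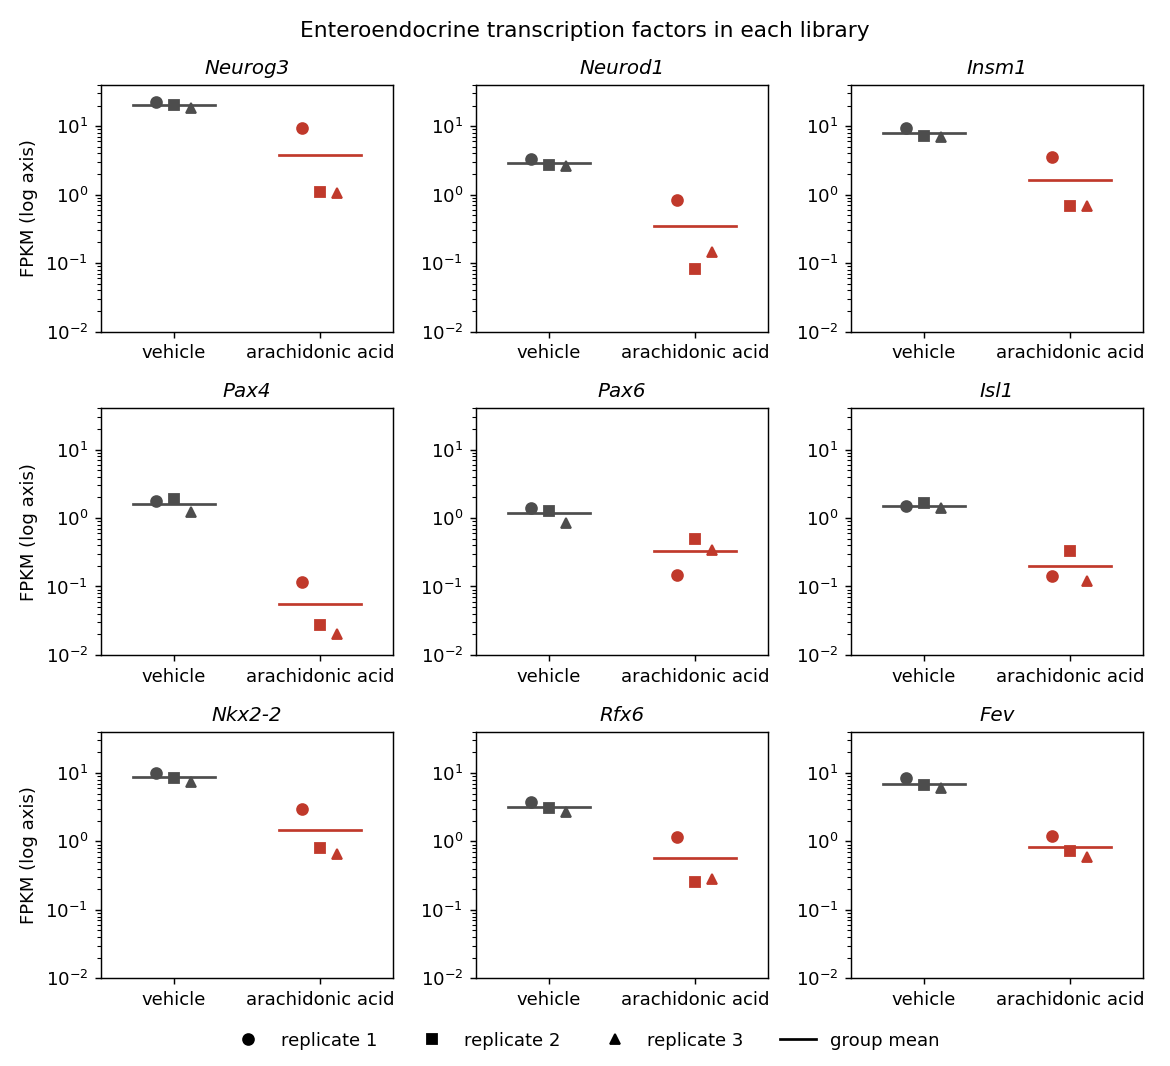
FPKM (log axis) of each of the 9 factors in the 3 vehicle and 3 arachidonic acid libraries; symbols give the replicate number and bars the group mean. In every panel the treated libraries lie below the vehicle libraries, and replicate 1 of arachidonic acid is the highest treated library for Neurog3, Neurod1, Insm1, Pax4, Nkx2-2, Rfx6 and Fev and the lowest for Pax6.

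Neurog3, the factor that starts the endocrine programme, had the highest level of the 9. With vehicle it was at 22.6, 20.2 and 18.1 FPKM, and the treated libraries had 9.28, 1.11 and 1.07 FPKM. Treated replicates 2 and 3 kept 5.45% and 5.26% of the vehicle mean, whereas replicate 1 kept 45.6%, and this one library makes the treated SD larger than the treated mean (20.3 ± 2.23 against 3.82 ± 4.73 FPKM, SD, n = 3 libraries per group). The fall was 2.58 log2 units (log2 fold change -2.58, SE 0.60, limma adjusted p = 0.015). Without arachidonic acid replicate 1 it was -3.35 (SE 0.11, limma adjusted p = 2.4e-07). The call was lost without vehicle replicate 1 (limma adjusted p = 0.062), vehicle replicate 2 (limma adjusted p = 0.053) and arachidonic acid replicate 3 (limma adjusted p = 0.0504), while the log2 fold change stayed between -2.58 and -2.19 in these fits. On the opposite strand Fam241b shares 273 of the 1674 exonic bases of Neurog3, and no source used here says whether the counting used strand. Fam241b was at 34.4 to 38.0 FPKM with vehicle and 28.4 to 33.1 FPKM with arachidonic acid.

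Neurod1, a helix-loop-helix factor and direct target of Neurog3, was at 3.30, 2.75 and 2.60 FPKM with vehicle and at 0.830, 0.0824 and 0.143 FPKM with arachidonic acid. The treated values correspond to 115, 8 and 19 fragments, so the lower ones are known only coarsely. Its log2 fold change was -1.56 (SE 0.23, limma adjusted p = 0.0036). The 1 added to each FPKM before the logarithm shrinks changes at such levels. With limma-voom, which models recovered whole fragments, the change was -3.54 (SE 0.61, adjusted p = 0.0066). Cerkl shares 201 exonic bases with Neurod1 on the same strand and was at 0.109 FPKM or below in every library.

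Insm1, a zinc-finger repressor of endocrine progenitors, was at 9.29, 7.20 and 7.02 FPKM with vehicle and at 3.53, 0.680 and 0.678 FPKM with arachidonic acid. Replicate 1 of the treated group again lay between the other treated libraries and the vehicle libraries. The log2 fold change was -1.91 (SE 0.39, limma adjusted p = 0.010), and -2.39 without that library (limma adjusted p = 3.8e-06). Nkx2-2, a homeodomain factor needed for several hormone cell types, was at 10.01, 8.43 and 7.33 FPKM with vehicle and at 3.00, 0.809 and 0.656 FPKM in the treated libraries. As for Insm1, treated replicate 1 lay between the rest of its group and the vehicle libraries. The log2 fold change of Nkx2-2 was -2.06 (SE 0.34, limma adjusted p = 0.0050) and -2.46 without replicate 1 of arachidonic acid.

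Pax4, a paired-homeodomain factor of endocrine progenitors, was reduced most in proportion. It was at 1.80, 1.87 and 1.21 FPKM with vehicle and at 0.117, 0.0278 and 0.0204 FPKM with arachidonic acid. These treated values are 6, 1 and 1 fragments, against 68, 69 and 47 in the vehicle libraries. Summed over libraries and scaled by depth, the vehicle level was 27.6 times the treated level, with an exact 95% counting interval of 13.7 to 64.9, which covers counting error only. In the fit with a minimum mean of 0.1 FPKM the log2 fold change was -1.31 (SE 0.13, limma adjusted p = 0.0014), and with limma-voom it was -4.83 (SE 0.70, adjusted p = 0.0040).

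The factors of later endocrine cells fell as well. Rfx6, a winged-helix factor of endocrine progenitors and mature hormone cells, was at 3.81, 3.07 and 2.71 FPKM with vehicle and at 1.18, 0.255 and 0.280 FPKM with arachidonic acid. The log2 fold change of Rfx6 was -1.46 (SE 0.25, limma adjusted p = 0.0055). Fev, an ETS-domain factor known from serotonin-producing neurons, was at 8.48, 6.56 and 5.95 FPKM with vehicle and at 1.19, 0.733 and 0.601 FPKM after treatment. Treated replicate 1 was again the highest of its group. Its counting interval (0.905 to 1.54 FPKM) lay above that of replicate 3 (0.3996 to 0.869 FPKM) but overlapped that of replicate 2 (0.474 to 1.08 FPKM). The log2 fold change of Fev, -2.12 (SE 0.18, limma adjusted p = 0.00082), had the smallest p of the 6 tested factors.

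Pax6 and Isl1 departed from the pattern of the other factors, in that replicate 1 was not the highest treated library. Pax6, a paired-homeodomain factor that takes part in the expression of hormone genes, was at 1.40, 1.28 and 0.858 FPKM with vehicle and at 0.146, 0.497 and 0.341 FPKM with arachidonic acid, and replicate 1 was the lowest. Isl1, a LIM-homeodomain factor of maturing endocrine cells, was at 1.49, 1.68 and 1.38 FPKM with vehicle and at 0.144, 0.329 and 0.120 FPKM with arachidonic acid. The treated values rest on 13, 31 and 29 fragments for Pax6 and on 10, 16 and 8 for Isl1. The exact 95% counting intervals of the Isl1 values overlapped among all 3 treated libraries, whereas for Pax6 the interval of replicate 1 (0.0777 to 0.250 FPKM) lay below that of replicate 2 (0.337 to 0.705 FPKM). In the fit with a minimum mean of 0.1 FPKM the log2 fold changes were -0.72 for Pax6 (SE 0.15, limma adjusted p = 0.014) and -1.07 for Isl1 (SE 0.11, limma adjusted p = 0.0016). The Pax6 call was lost without vehicle replicate 1 (limma adjusted p = 0.056) and vehicle replicate 2 (limma adjusted p = 0.054). In that fit the Neurog3 call was lost without any 1 library but arachidonic acid replicate 1 (limma adjusted p = 0.059 to 0.072), and that of Insm1 without vehicle replicate 1 (limma adjusted p = 0.056).

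**Figure D2:**
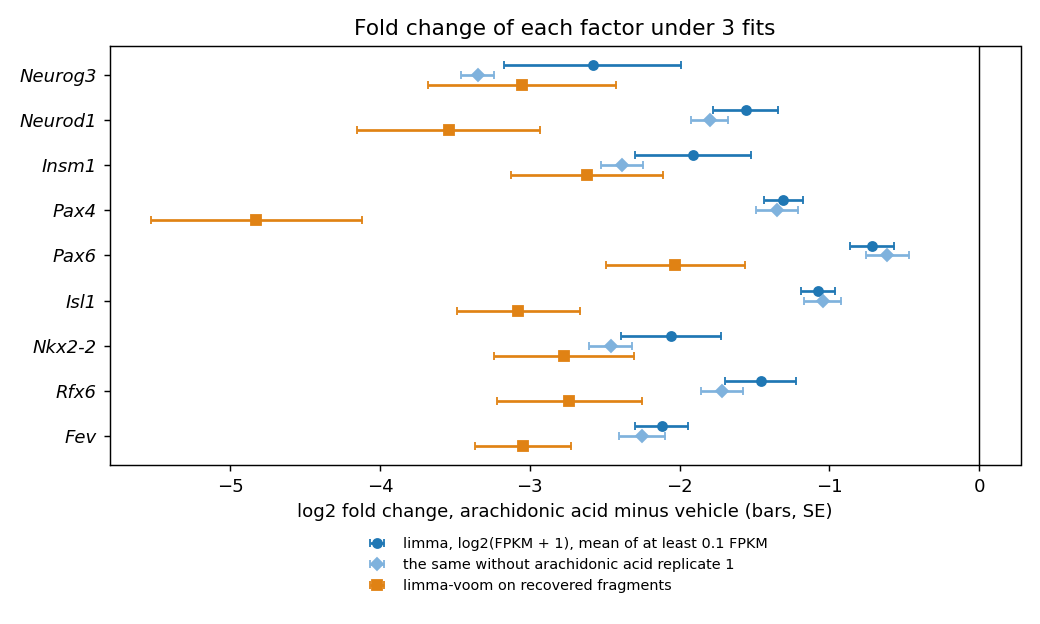
Log2 fold change of each factor (arachidonic acid minus vehicle, bars SE) from limma on log2(FPKM + 1) with a minimum mean of 0.1 FPKM, from the same fit without arachidonic acid replicate 1, and from limma-voom on recovered fragments. Every estimate lies below 0, from -0.61 for Pax6 without replicate 1 to -4.83 for Pax4 with limma-voom.

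The limma-voom estimates of the 9 factors ran from -4.83 for Pax4 to -2.03 for Pax6 (adjusted p = 0.0018 to 0.017), and 15.6% of 17514 genes were called lower in that fit. Leaving out arachidonic acid replicate 1 enlarged the log2(FPKM + 1) change of 7 factors and reduced that of Pax6 and Isl1. With that library left out, all 6 factors of the main fit were again called lower, where 32.4% of 12947 genes were called lower and 27.5% higher. In FPKM, the position of replicate 1 can be scaled so that the vehicle mean is 0 and treated replicates 2 and 3 average 1. It was 0.57 for Neurog3 and 0.60 for Insm1, and 0.69 to 0.74 for Rfx6, Nkx2-2 and Neurod1. It was 0.92 for Fev, 0.94 for Pax4, 1.06 for Isl1 and 1.36 for Pax6. Without a logarithm, a strongly reduced gene lies near 1 even where the treated libraries differ in proportion. Pax4 kept 7.20% of its vehicle mean in replicate 1 and 1.71% and 1.25% in replicates 2 and 3. Those values rest on 6, 1 and 1 fragments, and their counting intervals overlapped. In treated replicate 1 Neurog3 and Insm1 kept similar shares of their vehicle means, 45.6% and 45.0%, while Pax4, Isl1, Pax6 and Fev kept 7.20% to 17.02%.

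In the vehicle libraries the levels, in FPKM per gene, ordered as Neurog3 (20.3 ± 2.23), Nkx2-2 (8.59 ± 1.35), Insm1 (7.84 ± 1.26), Fev (6.998 ± 1.32), Rfx6 (3.20 ± 0.564), Neurod1 (2.88 ± 0.374), Pax4 (1.63 ± 0.364), Isl1 (1.52 ± 0.1498) and Pax6 (1.18 ± 0.286; SD, n = 3). The ranges of Nkx2-2 and Insm1, of Insm1 and Fev, of Rfx6 and Neurod1, of Pax4 and Isl1 and of Isl1 and Pax6 overlapped. Within each vehicle library, however, the first gene of the pair was the higher in 3 of 3 libraries, except that Pax4 was above Isl1 in 2 of 3. These orders were not tested. Gene length here is the mean over annotated transcripts, which bears most on Pax6, with 26 of them. The summed level of the 9 factors was 62.2, 53.1 and 47.2 FPKM with vehicle and 19.4, 4.52 and 3.91 FPKM with arachidonic acid. Neurog3 supplied 36.3% to 38.4% of that sum in the vehicle libraries, 47.8% in treated replicate 1 and 24.5% and 27.4% in treated replicates 2 and 3. The makeup of the factor pool therefore differed between replicate 1 and the other treated libraries, in both directions from vehicle.

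The proximal promoters at the RefSeq starts are shown for the 4 factors with the smallest p in the main fit. Neurog3 and Neurod1 are helix-loop-helix factors, which bind E-boxes. Any part of E-boxes in the fall of the factors was not tested. Each sequence is the 250 bases before the RefSeq start in GRCm38.p6, 5′ to 3′ on the gene's strand, with every CANNTG (the E-box, which reads the same on both strands) in capitals.
Fev, chr1:74885409-74885658, reverse strand: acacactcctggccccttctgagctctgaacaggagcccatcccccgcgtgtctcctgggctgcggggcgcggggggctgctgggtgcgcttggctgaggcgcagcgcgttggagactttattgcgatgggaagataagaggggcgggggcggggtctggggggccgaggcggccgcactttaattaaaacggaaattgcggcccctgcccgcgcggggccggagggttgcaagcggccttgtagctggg
Neurod1, chr2:79456637-79456886, reverse strand: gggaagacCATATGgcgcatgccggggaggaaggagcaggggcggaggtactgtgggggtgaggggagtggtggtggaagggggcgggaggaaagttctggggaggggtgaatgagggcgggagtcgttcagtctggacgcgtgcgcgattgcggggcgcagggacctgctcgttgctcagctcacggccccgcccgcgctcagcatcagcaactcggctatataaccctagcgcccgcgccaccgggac
Nkx2-2, chr2:147186403-147186652, reverse strand: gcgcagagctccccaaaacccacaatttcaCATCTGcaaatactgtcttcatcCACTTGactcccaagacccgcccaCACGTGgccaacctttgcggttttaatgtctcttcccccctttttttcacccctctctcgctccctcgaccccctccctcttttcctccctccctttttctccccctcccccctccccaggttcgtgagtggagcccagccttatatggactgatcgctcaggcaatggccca
Rfx6, chr10:51685268-51685517, forward strand: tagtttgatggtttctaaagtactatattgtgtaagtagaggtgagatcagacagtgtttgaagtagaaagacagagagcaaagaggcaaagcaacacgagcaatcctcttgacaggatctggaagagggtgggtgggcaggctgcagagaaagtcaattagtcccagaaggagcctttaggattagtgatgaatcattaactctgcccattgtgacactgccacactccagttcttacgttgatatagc

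Nkx2-2 carried 3 E-boxes, as 12.2% of all windows held 3 or more, and its first was CATCTG, which is CAGATG on the other strand. Neurod1 carried 1, and Fev and Rfx6 had none in this window. RefSeq windows were matched for 7 of the 9 factors, 8 windows in all since Pax6 has 2 starts, and 5 of the 8 held an E-box, against 66.2% of 32851 windows of the same length. CAGCTG, a form of CANNTG, was found upstream of Neurog3 and Isl1 and in 13.001% of all windows. CAGATG, searched on both strands, stood in 1 of the 8 and in 14.4% of all windows. Of the other motifs searched on both strands, CACNAG matched in 2 of the 8 windows (36.7% of all), TAATTA in the Fev window alone of the 8 (4.84% of all), TGACGTCA in 1 Pax6 window (1.55% of all), and TGTTTAC and TATAAA in none of the 8 (3.17% and 12.4% of all). A match is a description of the letters and not a binding site. The annotation used for gene lengths, GENCODE M21, places some gene starts elsewhere. It starts Nkx2-2 at chr2:147194243 (reverse strand) and Rfx6 at chr10:51677756, so both windows shown lie inside the annotated gene. The Neurod1 and Fev windows overlap the annotated 5′ ends.

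Other transcription factors linked to the enteroendocrine lineage also fell, most of them at low levels. Of 22 listed, 9 were tested in the main fit. Of these, 5 fell, 1 rose and 3 did not pass, and the median log2 fold change was -0.34, beside -0.03 for all genes tested, of which 19.4% were called lower and 20.8% higher. Mnx1, a homeodomain factor, was at 7.12, 7.06 and 7.17 FPKM with vehicle and at 3.09, 1.71 and 2.04 FPKM with arachidonic acid (log2 fold change -1.33, SE 0.16, limma adjusted p = 0.0021). Sox4, which acts upstream in endocrine progenitors, fell from 63.7 ± 5.61 to 35.4 ± 9.28 FPKM (log2 fold change -0.86, limma adjusted p = 0.011). Atoh1, the switch to secretory fates, was at 3.44, 2.90 and 2.16 FPKM with vehicle and at 1.77, 0.397 and 0.398 FPKM with arachidonic acid (log2 fold change -1.11, SE 0.30, limma adjusted p = 0.025). Foxa2, a forkhead factor, fell from 22.3 ± 1.84 to 17.4 ± 1.53 FPKM (log2 fold change -0.34, limma adjusted p = 0.028). Foxa1 and Pdx1 did not pass, at 39.2 ± 2.55 and 42.0 ± 2.57 FPKM and at 9.04 ± 0.0355 and 8.31 ± 1.57 FPKM. The count of 5 lower was 1, 2 and 2 without vehicle replicates 1, 2 and 3, 3 without arachidonic acid replicate 2 or 3, and 7 without arachidonic acid replicate 1. The riser, Rcor2, a co-repressor partner, had a log2 fold change of 0.41 (limma adjusted p = 0.048) and was named after its values were seen; its call was lost without any 1 library but arachidonic acid replicate 1.

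With a minimum mean of 0.1 FPKM, 18 of the 22 were tested, 12 were lower and none was higher, where 14.3% of all genes were lower and 16.0% higher. The factors added by the lower filter, named after their values were seen, included Lmx1a, a LIM-homeodomain factor of serotonin-producing cells, at 1.15, 0.677 and 0.816 FPKM with vehicle and at 0.156, 0.0258 and 0.0503 FPKM with arachidonic acid. Neurod2, Myt1, St18, Etv1 and Runx1t1 were also called lower there. Nkx6-3, at 0.0120 to 0.0232 FPKM with vehicle, was at 0.0616 FPKM in treated replicate 1 and at 2.69 and 2.59 FPKM in replicates 2 and 3, and did not pass (log2 fold change 1.25, limma adjusted p = 0.081). Without arachidonic acid replicate 1 it was called higher (log2 fold change 1.84, limma adjusted p = 1.4e-05).

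Genes of the Notch pathway, which holds back Atoh1 and Neurog3, moved in both directions. Of 14 listed, 11 were tested, 3 rose, 3 fell and 5 did not pass, with a median log2 fold change of -0.07. The background was 20.8% of genes higher and 19.4% lower. The ligand gene Dll1, which is switched on in committed secretory progenitors, was at 22.5, 21.7 and 23.1 FPKM with vehicle and at 15.3, 5.22 and 4.48 FPKM with arachidonic acid (log2 fold change -1.51, SE 0.39, limma adjusted p = 0.022). Its treated replicate 1 lay between the groups, as for Neurog3. The receptor gene Notch1 fell from 52.4 ± 2.63 to 30.6 ± 6.21 FPKM (log2 fold change -0.77, limma adjusted p = 0.0063), and the receptor gene Notch2 rose from 3.40 ± 0.177 to 5.31 ± 0.0471 FPKM (log2 fold change 0.52, limma adjusted p = 0.0061). The ligand genes Jag1 and Jag2 rose, from 6.56 ± 0.372 to 17.5 ± 4.39 FPKM and from 24.2 ± 3.08 to 76.95 ± 30.4 FPKM. The third gene that fell, named after its values were seen, was the ligand gene Dll4 (log2 fold change -0.67, limma adjusted p = 0.027). Hes1, the repressor through which Notch acts on Neurog3, was at 112 ± 5.49 and 91.7 ± 13.96 FPKM and did not pass (log2 fold change -0.30, SE 0.11, limma adjusted p = 0.069). Without arachidonic acid replicate 1 Hes1 was called lower (log2 fold change -0.42, limma adjusted p = 0.00060). The count of 3 lower was 1 without vehicle replicate 1 or 2 or arachidonic acid replicate 2 or 3, and 5 without arachidonic acid replicate 1.

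The products of enteroendocrine cells fell beside the factors. Of 15 listed hormone genes 9 were tested, and 8 fell and 1 did not pass (median log2 fold change -1.83). Of 17 listed genes for granins and the regulated secretory pathway 13 were tested, and 12 fell and 1 rose, with a median of -1.48. Over all genes tested 19.4% were called lower and 20.8% higher. Chga (chromogranin A) was at 73.0, 82.1 and 66.5 FPKM with vehicle and at 20.1, 13.9996 and 13.2 FPKM with arachidonic acid. Chgb (chromogranin B) had means of 208 ± 14.3 FPKM with vehicle and 42.2 ± 10.3 FPKM after treatment, a log2 fold change of -2.29 (SE 0.16, limma adjusted p = 0.00049). The GLP-1 precursor gene Gcg was at 12.7 to 13.1 FPKM in all 3 treated libraries, replicate 1 included. Sct, which encodes secretin, fell from 6.11 ± 1.62 to 1.40 ± 0.162 FPKM (log2 fold change -1.55, limma adjusted p = 0.0017), and Tac1, the substance P precursor gene of enterochromaffin cells, fell from 32.1 ± 5.77 to 4.73 ± 1.13 FPKM. Gip, Cck, Pcsk1 and Cpe were also called lower, with log2 fold changes of -3.09, -2.04, -1.48 and -1.74. Sst, which encodes somatostatin, was at 14.9, 14.02 and 8.49 FPKM with vehicle and at 4.74, 10.5 and 7.22 FPKM with arachidonic acid, and the groups overlapped (log2 fold change -0.69, SE 0.30, limma adjusted p = 0.10). The gene that rose was Pam, a peptide-amidating enzyme gene named after its values were seen (log2 fold change 0.43, limma adjusted p = 0.020); its call was lost without vehicle replicate 1, vehicle replicate 3 or arachidonic acid replicate 3, and with the replicate number as a block.

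The share of the vehicle level that was left differed in its pattern over the treated libraries. Over the 9 factors the median share was 28.8% in treated replicate 1 and 8.68% and 7.94% in replicates 2 and 3. Over the 10 hormone genes with a vehicle mean of at least 1 FPKM it was 20.995%, 22.1% and 19.5%. Over the 14 granin and secretory pathway genes above that level it was 27.0%, 18.4% and 19.7%. Genes were kept here by their vehicle level alone, which favours low shares. Among hormone genes below that level, named after their values were seen, Vgf, Pyy, Iapp and Insl5 had treated means at 76.5%, 40.1%, 36.8% and 25.8% of vehicle. A higher share in replicate 1 was not particular to the factors. The medians were 43.4%, 13.6% and 28.7% for goblet, 58.0%, 22.8% and 26.5% for Paneth and 86.5%, 38.6% and 36.3% for enterocyte markers. These medians hide differences between genes. In the granin list, by genes named after their values were seen, Cplx2, Vwa5b2 and Rab3c were highest in replicate 1 (41.3%, 27.5% and 20.9%), while Scg2, Scg3 and Scg5 were lowest there. Pax6 was lowest in replicate 1 (12.4%, against 42.1% and 28.9%), and Isl1 was lower there (9.49%) than in replicate 2 (21.7%). Among the hormones Sst stood at 37.997%, 84.3% and 57.9%, and Nts, which encodes neurotensin, at 8.69%, 9.65% and 1.01%. The ratio of Neurog3 to Chga, both in FPKM, was 0.246 to 0.309 in the vehicle libraries, 0.462 in treated replicate 1 and 0.0791 and 0.0812 in replicates 2 and 3. The ratio of Isl1 to Chga was 0.0204 to 0.0208 with vehicle and 0.00717, 0.0235 and 0.00914 with arachidonic acid. The treated Isl1 values behind this ratio and the shares above rest on 10, 16 and 8 fragments, and their counting intervals overlapped. These shares and ratios are descriptions and were not tested.

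**Figure D3:**
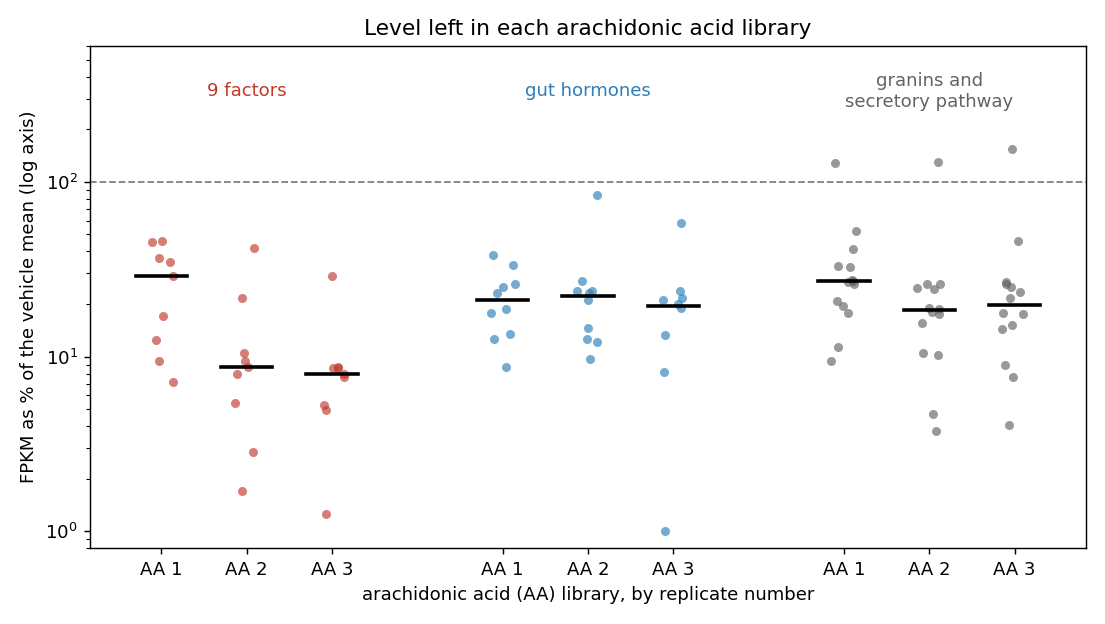
FPKM in each arachidonic acid (AA) library as a percentage of the gene's vehicle mean (log axis), for the 9 factors and for the hormone and granin or secretory pathway genes with a vehicle mean of at least 1 FPKM; points are genes and bars medians, and Ucn3, listed at 0 in AA 3, is not drawn there. The median of the factors is 28.8% in AA 1 and 8.68% and 7.94% in AA 2 and AA 3, while that of the hormones is 19.5% to 22.1% in all 3. Goblet, Paneth and enterocyte markers, not drawn, also have their highest median in AA 1.

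The genes whose course over the 6 libraries came nearest to that of each called factor were found by the root mean square difference in log2(FPKM + 1) from their own vehicle means. Cck, cholecystokinin, was the nearest to Fev, at a difference of 0.09, followed by Plekhd1 at 0.12. Celf3 (0.08) and Mxd4 (0.08) were nearest to Neurod1, Cyp2w1 (0.09) and Mxd4 (0.11) to Rfx6, and Cxxc5 (0.10) and 2700081O15Rik (0.13) to Nkx2-2. Ntn4 (0.06) and Cd302 (0.13) were nearest to Neurog3, and Nags (0.14) and Gm45674 (0.15) to Insm1. Ntn4, which encodes a netrin, was at 14.9, 12.8 and 12.97 FPKM with vehicle and at 5.71, 0.399 and 0.419 FPKM with arachidonic acid. Of these 11 genes, Cck alone is in the fixed lists.

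Counts of marker genes are set beside 19.4% of all genes called lower and 20.8% called higher. Of 6 tested goblet cell markers 5 were lower, and their list summed to 1649 to 2085 FPKM with vehicle and to 384 to 736 FPKM with arachidonic acid. Of 7 tested Paneth cell markers 5 were lower, with sums of 1764 to 2687 and 439 to 943 FPKM. The Paneth count was 2 with no filter, and 2 without vehicle replicate 1 or 2 or arachidonic acid replicate 2 or 3. In both lists treated replicate 1 had the highest treated sum. Of 7 tested factors of the secretory and tuft lineages 3 fell, Atoh1 among them, and 1 fell without vehicle replicate 1 or 2 or arachidonic acid replicate 3. Spdef, a goblet and Paneth cell factor, was at 11.005 ± 2.67 and 2.98 ± 2.30 FPKM (log2 fold change -1.72, limma adjusted p = 0.015), and Xbp1, a factor of secretory cells, at 209 ± 13.96 and 159 ± 1.23 FPKM (log2 fold change -0.39, limma adjusted p = 0.0056). Of 9 tested enterocyte markers 2 were higher and 4 lower. The count of 4 lower was 2 with no filter, 1 without vehicle replicate 2 or 3, and 2 without vehicle replicate 1 or arachidonic acid replicate 2 or 3. Stem cell markers gave 1 higher and 4 lower of 7. Olfm4 fell from 190 ± 41.4 to 14.7 ± 16.6 FPKM (log2 fold change -4.12, limma adjusted p = 0.0049). Ascl2 rose from 11.6 ± 1.71 to 36.6 ± 8.74 FPKM (log2 fold change 1.56, limma adjusted p = 0.0022), and Lgr5 did not pass (limma adjusted p = 0.55). Tuft cell markers, with 2 tested and neither called, summed to 2.71 to 4.91 and 3.04 to 9.73 FPKM. With limma-voom 6 were tested, 1 was lower and 0 were higher, against 15.6% and 16.2% of all genes. The lower one, named after its values were seen, was Dclk1 (log2 fold change -4.47, limma-voom adjusted p = 0.0051). It was at 0.148 to 0.206 FPKM with vehicle and at 0.0112 FPKM or below with arachidonic acid. Avil, an actin-binding protein gene, was at 6.01 and 3.82 FPKM in treated replicates 2 and 3. It was called higher without arachidonic acid replicate 1 (log2 fold change 1.83, limma adjusted p = 9.1e-05). Ret, a receptor of enteric neurons, did not pass (limma adjusted p = 0.089) but was called lower without that library (log2 fold change -1.27, limma adjusted p = 0.00014). Of 10 neuron and glia markers 8 were under 1 FPKM in every library; Tubb3, tubulin beta 3, was called lower, at 2.84 ± 0.469 and 0.373 ± 0.326 FPKM. Mesenchymal markers summed to 4.46 to 6.02 FPKM with vehicle and 0.484 to 1.84 FPKM with arachidonic acid, most of it Vim, and the other 7 were under 1 FPKM throughout. Immune markers summed to 1.85 to 2.48 and 4.21 to 24.6 FPKM, mainly Cd68, which alone was at 23.9 FPKM in treated replicate 2. The call of Cd68 as higher was lost without any 1 library but arachidonic acid replicate 1. The other 5 immune markers were under 1 FPKM in every library. Endothelial markers summed to 0.188 FPKM at most. The part of these other cells in the fall of the factors was not tested.

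**Figure D4:**
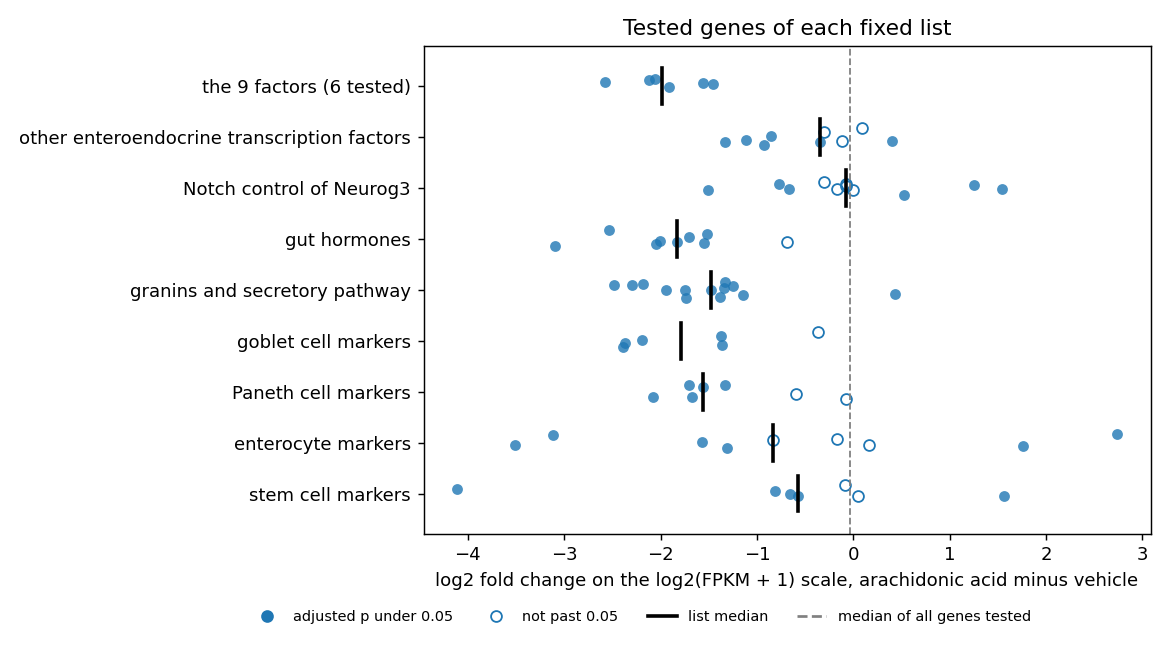
Change in log2(FPKM + 1), arachidonic acid minus vehicle, of each tested gene of the fixed lists (filled, adjusted p under 0.05; open, not past it), with list medians as black bars and the median of all genes tested (-0.03) as the dashed line. All 6 tested factors lie below -1, as do the tested hormone and granin or secretory pathway genes except Sst (-0.69) and Pam (0.43). The Notch genes lie on both sides of 0.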

How the data were processed

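The deposited values are FPKM that the authors computed, 1 column per library, a unit inferred from the values. The submitters' processing notes name featureCounts 1.5.0-p3, HISAT2 2.0.5 and StringTie 1.3.3b, without roles; no source used here gives the genome build, annotation or strand setting. FPKM times the mean transcript length in GENCODE M21, rounded to whole bases, gave whole fragments, to within 0.1, for 96.3% to 96.8% of values below 100 fragments and for all 54 values of the 9 factors. Symbols were found for 53274 of 53465 Ensembl identifiers.

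limma 3.58.1 in R 4.3.3 fitted the group on log2(FPKM + 1) with a variance trend, for genes averaging 1 FPKM or more across the 6 libraries, with two-sided p-values adjusted by Benjamini-Hochberg over all genes tested (threshold 0.05). The limma-voom fit used recovered fragments, a mean of at least 5 and a trimmed-mean scaling. Fold changes are arachidonic acid minus vehicle. Counting intervals are exact 95% intervals and cover counting error only. The scripts were tested on simulated data. The members and lists were chosen with earlier results of these data known. The naming rule took up to 4 genes per list (2 for other cell types) with the smallest p. It took Chga, Chgb, Atoh1, Hes1, Dll1, Gcg, Gip, Cck, Sct and Sst always, and the 2 genes nearest in profile to each called factor. Not every gene under this rule is named here. Vil1, Lgr5, Sox10, Cdh5, Emcn, Foxa1, Pdx1 and Nts were among those named outside it, as were genes said to be named after their values were seen. Promoter sequences are from RefSeq (GRCm38.p6). Alternatives covered pseudocount, filter, scaling, model, replicate block and each library left out. Python 3.11.15 with numpy 2.4.6, pandas 2.3.3, scipy 1.17.1 and matplotlib 3.10.9 were used. Some listed genes are not reported here by name.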

Additional observations from a re-analysis of the deposited data

How the results depend on the processing

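All 9 factors kept a negative log2 fold change under every alternative that tested them, and none was called higher. The count of factors called lower, 6, was 2 with a minimum mean of 5 FPKM, which tested only 2 of them, and 5 to 7 with 1 library left out. With a minimum mean of 0.1 FPKM and 1 library left out, settings chosen after seeing the data together with limma-voom without arachidonic acid replicate 1 (9 lower), it was 6 to 9. Over all genes, leaving out 1 library gave 1712 to 3554 higher and 1245 to 4192 lower, against 2690 and 2502. Of the other enteroendocrine factors, 9 were lower with no filter, 3 with a minimum mean of 5 FPKM, 12 with a minimum mean of 0.1 FPKM, 12 with limma-voom and 1 to 7 with 1 library left out. The 1 higher became 0 with limma-voom, the replicate block, median-of-ratios scaling, quantile normalization, no filter and a minimum mean of 0.1 FPKM, and 0 to 2 with 1 library left out. Lower Notch genes numbered 1 with no filter and 1 to 5 with 1 library left out. Lower hormone genes numbered 4 and lower granin genes 4 with a minimum mean of 5 FPKM, which tested 5 of each list. The 1 higher granin gene became 0 with the replicate block and 0 to 1 with 1 library left out. Apart from the smaller number tested under a stricter filter, the cause was not tested.

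Replicate numbers 1 to 3 occur in both groups, and no label ties a number to a shared culture. Same-numbered libraries had correlations of -0.08, 0.21 and -0.06 in their deviations from the group mean over 12913 genes, other pairs had -0.18 to 0.19, and not every library correlated best with its own number. With the replicate block the 6 factors were again called lower (limma adjusted p = 0.0042 to 0.017), and 2263 genes were higher and 1998 lower.

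Depth limits Pax4 most, at 1 fragment in each of 2 treated libraries.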
